A study of Mus musculus with 37 samples.

Results

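This section describes the strain by genotype interaction of Wfs1 loss in mouse temporal lobe, that is, how far the KO minus WT difference of a transcript in the C57 strain departed from the KO minus WT difference in the 129 strain. For each probe set it is (C57 KO minus C57 WT) minus (129 KO minus 129 WT) on the log2 scale, and it uses all 37 arrays of the series: 9 of C57 mice lacking Wfs1 (C57 KO), 9 of C57 wild-type mice (C57 WT), 10 of 129 mice lacking Wfs1 (129 KO) and 9 of 129 wild-type mice (129 WT). The labels write the 129 strain as 129SV and the series design names the backgrounds C57B6 and 129S6. The same gene, Wfs1, was disrupted in both KO groups, and no treatment was given. Age, sex, litter, the embryonic stem cell line of the targeted allele and the number of backcross generations were not stated in the sources at hand. Temporal lobes were dissected and frozen, and total RNA was hybridised to Affymetrix mouse arrays, whose probe sets each report 1 transcript region. Whether the arrays stand for separate animals is not stated, so p-values reflect how much samples of a group varied, which may be technical.

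Wfs1 encodes wolframin, a membrane protein of the endoplasmic reticulum (ER) that is lost in Wolfram syndrome, and it has been studied for its part in ER calcium handling and in the unfolded protein response. In the mouse brain it is strongly expressed in the CA1 field of the hippocampus, the amygdala and the upper layers of the cortex. A strain by genotype interaction asks whether the same null allele is accompanied by different transcript changes on different genetic backgrounds. As general background on such crosses, a targeted allele bred into another strain brings a stretch of neighbouring chromosome with it, whose length depends on breeding and on recombination.

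Signals ran from 1.34 to 13.76 over arrays whose medians lay between 4.30 and 4.36. Of 45037 probe sets other than controls, 27647 were tested, namely those with a mean of at least 3.6 in at least 1 group. The tissue check gave Snap25 at 11.49 to 12.27, Slc17a7 at 7.36 to 8.67, Gad1 at 10.64 to 11.10, Mbp at 12.04 to 12.60 and Gfap at 7.06 to 8.01 over the arrays, which are neuronal, myelin and astrocyte transcripts. As a sign of RNA quality, the actin control read at its 3' end exceeded that at its 5' end by 0.95 to 1.94 in C57 KO, 1.03 to 1.66 in C57 WT, 0.91 to 1.66 in 129 KO and 0.98 to 2.76 in 129 WT, where array 73 was highest. The arrays were split by the sign of their residual signal, less the group means, on 1 probe set of Gprin3. This unlabelled split divided them into those with lower and those with higher sample numbers within each group, 19 and 18 arrays. The labels name no batch for it. The mean level of 16 striatum markers had a median of -0.28 in C57 KO, 0.23 in C57 WT, 0.00 in 129 KO and 0.12 in 129 WT, as log2 deviation from each marker's mean, and ran from -0.60 to 0.29, -0.41 to 0.63, -0.48 to 0.28 and -0.20 to 0.33 over the arrays of these groups.

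Wfs1 itself did not pass the interaction test. Its signal was 2.75, 2.93 and 3.60 (lowest, median and highest array) in C57 KO, against 9.16, 9.27 and 9.73 in C57 WT. In 129 it was 2.64, 3.19 and 3.59 in KO, against 9.11, 9.36 and 9.52 in WT. All 19 KO arrays lay below all 18 WT arrays, and the falls of the signal in C57 and in 129 differed by -0.06 (SE 0.14, 95% interval -0.35 to 0.23). Both KO means lie below the signal filter, so remaining transcript in the strains cannot be compared at this signal.

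Across the 27647 probe sets, 9 passed the interaction test at a limma adjusted p under 0.05, which is 0.0326% of those tested. In 4 of them the difference was positive (0.0145%) and in 5 negative (0.0181%). They represent 5 named genes, Jakmip1 with 2 probe sets and Abhd1, Drc1, Ppp1cb and Supt7l with 1 each, and 3 probe sets with no gene symbol in the annotation used. All 5 named genes lie on chromosome 5, which carries Wfs1. Without adjustment, 898 probe sets (3.25%) had an interaction p under 0.05, 653 of them positive and 245 negative. The KO minus WT difference taken by itself passed for 29 probe sets in C57 (0.105%) and for 1, Wfs1, in 129 (0.00362%). These comparisons share their arrays with the interaction. Among the 9 probe sets the KO minus WT differences in 129 were at most 0.28 in size. Read on 1 probe set per gene, the brightest, 2 of 13078 genes passed, Abhd1 and Drc1, and with probe sets averaged per gene 3 passed, Jakmip1 in addition. Among the lower-numbered arrays alone 7 probe sets passed, 6 of them from the 9, and among the higher-numbered ones 1, Jakmip1 on 1433815_at.

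Jakmip1 had the smallest adjusted p. It encodes a coiled-coil protein of neurons that binds microtubules, Janus kinases and GABA-B receptors, and it is the first tested gene after Wfs1 in the gene order of chromosome 5. On probe set 1433815_at its signal was 4.08, 4.41 and 4.52 (lowest, median and highest array) in C57 KO, against 5.83, 6.22 and 6.49 in C57 WT. In 129 the signal was 3.89, 4.32 and 4.70 in KO, against 3.78, 4.37 and 4.60 in WT. The C57 WT arrays were thus alone at a high signal, with no overlap with any other group, while C57 KO arrays lay within the 129 range. The KO minus WT difference was -1.85 in C57 and 0.04 in 129, and the interaction was -1.90 (SE 0.14, 95% interval -2.18 to -1.61, limma adjusted p = 1.28e-11). It was -2.04 among the lower-numbered and -1.72 among the higher-numbered arrays. A dimmer probe set, 1430597_at, pointed the same way (interaction -0.80, SE 0.10, limma adjusted p = 2.49e-05), with means of 3.08 in C57 KO and 3.79 in C57 WT, and of 3.28 in 129 KO and 3.19 in 129 WT. It passed the signal filter only through C57 WT, so its differences are differences in signal near background. The other probe sets of Jakmip1 did not pass. The brightest, 1441317_x_at, had means of 9.33 in C57 KO, 9.64 in C57 WT, 9.24 in 129 KO and 9.35 in 129 WT, and an interaction of -0.20 (SE 0.10, unadjusted limma p = 0.0517). On 1457080_at the interaction was -0.04 (SE 0.13). The call thus rests on some probe sets of the gene and not on its brightest one.

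The start regions of Wfs1 and of 3 called genes are shown because all lie on chromosome 5 and the called genes are read against Wfs1 below. For Jakmip1 the start nearer to Wfs1 was taken. Abhd1 and Supt7l are named only. Wfs1 is read from the reverse strand and Jakmip1, next to it, from the forward strand, so the 2 genes are read away from each other. The windows run 250 bases before to 50 bases after each start, 5′ to 3′ on the gene's strand, from RefSeq on GRCm38.p6. Capitals mark matches, on either strand, to any of 6 short motifs that were searched: the CCAAT box CCAAT, the E-box CACGTG, the cyclic AMP response element core TGACGT, the RFX motif GTTGCC, the GC box GGGCGG and the TATA box TATAAA. No motif holds another inside it.
Wfs1, chr5:36988933-36989232, reverse strand: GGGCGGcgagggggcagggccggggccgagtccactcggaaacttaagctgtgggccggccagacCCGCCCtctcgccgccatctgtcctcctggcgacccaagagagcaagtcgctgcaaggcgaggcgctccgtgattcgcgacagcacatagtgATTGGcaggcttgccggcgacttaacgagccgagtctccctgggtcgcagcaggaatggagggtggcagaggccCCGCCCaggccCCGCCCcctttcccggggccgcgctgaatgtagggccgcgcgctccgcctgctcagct
Jakmip1, chr5:37050607-37050906, forward strand: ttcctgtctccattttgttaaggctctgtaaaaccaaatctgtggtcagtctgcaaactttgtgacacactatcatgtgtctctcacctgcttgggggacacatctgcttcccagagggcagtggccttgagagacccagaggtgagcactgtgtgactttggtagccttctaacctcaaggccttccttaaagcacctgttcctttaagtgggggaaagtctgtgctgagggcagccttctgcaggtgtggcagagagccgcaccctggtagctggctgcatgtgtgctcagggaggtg
Drc1, chr5:30281143-30281442, forward strand: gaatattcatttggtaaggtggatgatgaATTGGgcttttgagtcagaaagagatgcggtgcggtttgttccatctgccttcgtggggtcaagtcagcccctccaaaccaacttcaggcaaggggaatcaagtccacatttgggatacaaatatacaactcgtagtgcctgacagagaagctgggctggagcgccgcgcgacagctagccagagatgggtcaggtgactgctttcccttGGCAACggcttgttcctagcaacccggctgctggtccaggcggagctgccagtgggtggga
Ppp1cb, chr5:32458720-32459019, forward strand: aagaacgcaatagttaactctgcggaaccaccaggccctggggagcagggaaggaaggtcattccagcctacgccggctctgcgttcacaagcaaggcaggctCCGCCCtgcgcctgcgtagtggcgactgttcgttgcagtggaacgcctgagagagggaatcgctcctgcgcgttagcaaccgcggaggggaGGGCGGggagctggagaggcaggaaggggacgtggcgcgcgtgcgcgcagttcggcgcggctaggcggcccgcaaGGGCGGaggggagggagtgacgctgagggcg
The Wfs1 window holds 1 CCAAT box and 4 GC boxes and is 70.0% G or C. The Jakmip1 window holds none of the motifs and is 53.0% G or C, the Drc1 window holds 1 CCAAT box and 1 RFX motif, the target of RFX factors that act on ciliary genes, and the Ppp1cb window holds 3 GC boxes. Among all 32851 promoter windows of the RefSeq table, 37.4% hold the CCAAT box, 35.7% the GC box, 12.5% the RFX motif, 13.6% the TATA box, 7.51% the TGACGT core and 7.15% the E-box. The matches are descriptions of these letters in the reference sequence, not sites of binding.

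Abhd1 went the other way. It encodes an enzyme-like protein of the alpha/beta hydrolase fold family and had 1 probe set. Its signal was 5.61, 5.84 and 6.17 (lowest, median and highest array) in C57 KO, against 4.14, 4.40 and 5.37 in C57 WT. In 129 it was 5.67, 5.96 and 6.49 in KO, against 5.82, 5.93 and 6.10 in WT. Again the C57 WT arrays stood apart, here at a low signal, and their highest member was array 34 at 5.37, with the others at 4.71 or less. The KO minus WT difference was 1.38 in C57 and 0.01 in 129, and the interaction was 1.37 (SE 0.15, 95% interval 1.05 to 1.68, limma adjusted p = 1.2e-06). It was 1.81 among the lower-numbered arrays and 0.90 among the higher-numbered ones, where it did not pass (limma adjusted p = 0.979).

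Drc1 encodes a subunit of the nexin-dynein regulatory complex, which coordinates the beating of motile cilia such as those of ependymal cells. Its signal was 6.65, 6.78 and 6.95 in C57 KO, against 5.83, 6.10 and 6.56 in C57 WT. In 129 it was 6.54, 6.74 and 6.91 in KO, against 6.52, 6.67 and 6.86 in WT. The C57 KO and C57 WT arrays did not overlap, whereas the C57 WT and 129 WT arrays met at their edges. The interaction was 0.59 (SE 0.10, 95% interval 0.39 to 0.79, limma adjusted p = 0.00195), and it was 0.49 among the lower-numbered and 0.68 among the higher-numbered arrays, in neither of which it passed by itself (limma adjusted p = 0.809 and 0.645).

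Ppp1cb, a catalytic subunit of protein phosphatase 1, gave opposite values on different probe sets. On 1431328_at its signal was 6.70, 6.91 and 6.98 in C57 KO, against 5.73, 6.12 and 6.66 in C57 WT. In 129 it was 6.61, 6.83 and 7.16 in KO, against 6.67, 6.92 and 7.17 in WT. That interaction was 0.81 (SE 0.12, limma adjusted p = 0.000464), with C57 WT again the group that stood apart. On the brightest probe set, 1426205_at, the means were 9.52 in C57 KO, 9.93 in C57 WT, 9.48 in 129 KO and 9.42 in 129 WT, and the interaction was -0.47 (SE 0.12, limma adjusted p = 0.508). The remaining 2 probe sets had interactions of 0.09 and -0.01. No direction for the gene can be stated from these values.

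Supt7l encodes a subunit of the human STAGA histone acetyltransferase complex and was measured close to background. On 1433374_at the signal was 2.98, 3.54 and 3.96 in C57 KO, against 2.38, 2.98 and 3.22 in C57 WT. In 129 it was 3.08, 3.49 and 3.92 in KO, against 3.43, 3.85 and 4.16 in WT. Arrays of C57 KO and C57 WT overlapped, and the probe set passed the signal filter only through 129 WT. The interaction was 0.88 (SE 0.17, limma adjusted p = 0.0177). Among the called probe sets, this was the only case in which the difference in 129, here -0.28, also had a size above 0.1. The brighter probe set of the gene had an interaction of -0.10 (SE 0.11).

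**Figure D1:**
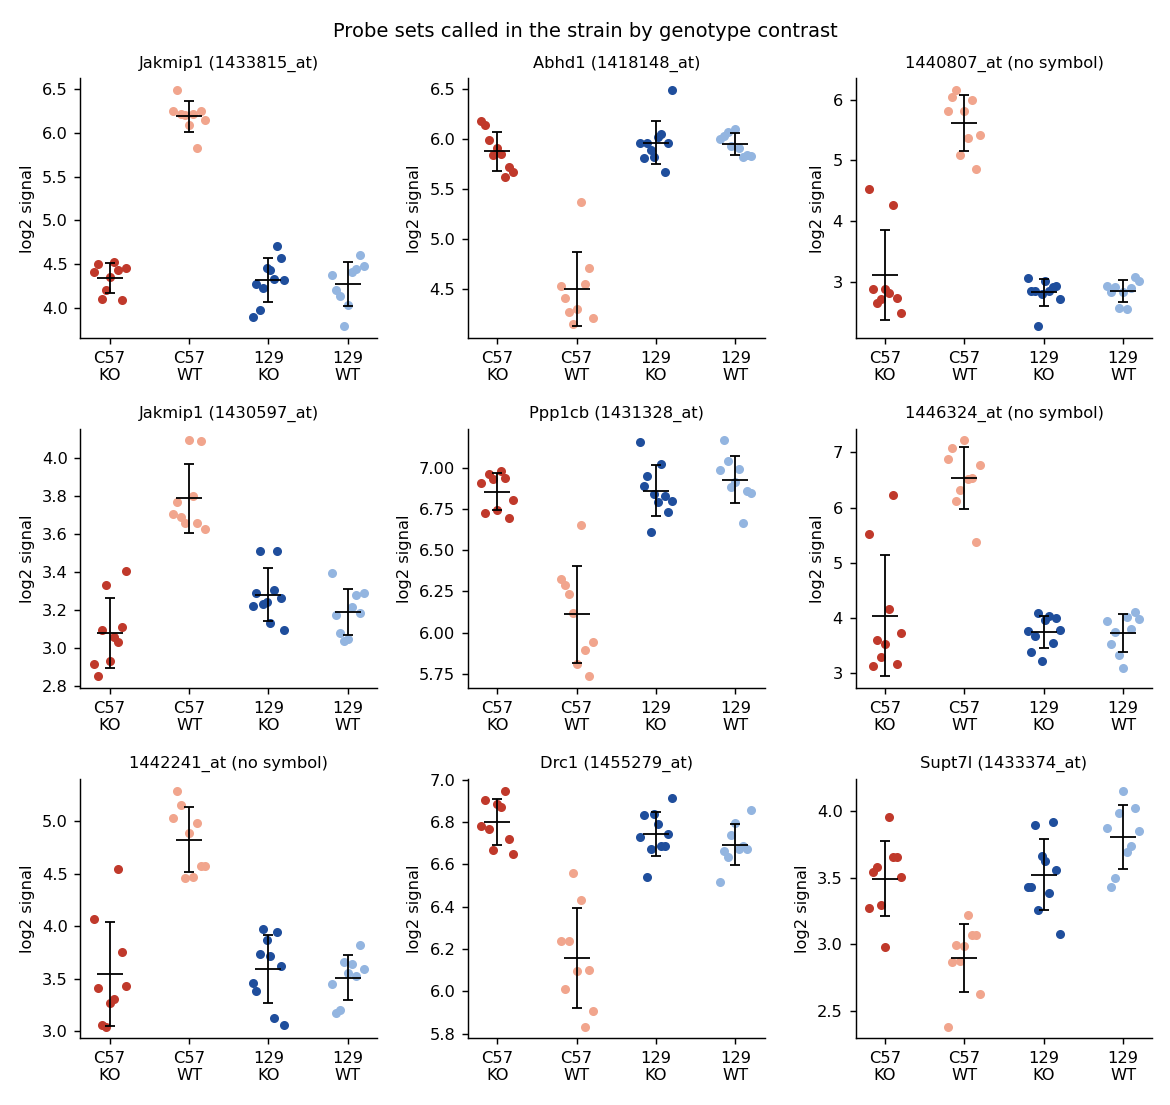
Log2 signal of each array for the 9 probe sets that passed the interaction test, with 1 panel per probe set, groups along the horizontal axis in the order C57 KO, C57 WT, 129 KO and 129 WT, points for arrays and bars for group means. In each panel the C57 WT arrays sit apart from most arrays of the other groups, as for Jakmip1 at 5.83 to 6.49 in C57 WT and at 3.78 to 4.70 in the others.

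The 3 probe sets without a gene symbol all had a high signal in C57 WT. Of these, 1440807_at and 1442241_at passed the signal filter only through C57 WT, with the other 3 group means below 3.6, so the sizes of their differences are differences in signal from near background. Probe set 1440807_at had means of 3.11 ± 0.74 in C57 KO and 5.62 ± 0.45 in C57 WT (SD, n = 9 each), and of 2.83 ± 0.22 in 129 KO (SD, n = 10) and 2.85 ± 0.18 in 129 WT (SD, n = 9), an interaction of -2.48 (SE 0.28, limma adjusted p = 1.2e-06). Probe set 1442241_at had means of 3.54 in C57 KO, 4.82 in C57 WT, 3.59 in 129 KO and 3.51 in 129 WT. Probe set 1446324_at had an interaction of -2.50 (SE 0.40, limma adjusted p = 0.00134) and 1442241_at of -1.36 (SE 0.22, limma adjusted p = 0.00134). In all 3 the same C57 KO arrays, 1 and 9, were above the others of their group. They read 4.53 and 4.27 on 1440807_at, 5.52 and 6.23 on 1446324_at, and 4.06 and 4.54 on 1442241_at. On 1446324_at both, and on 1442241_at array 9, reached into the C57 WT range, while on 1440807_at the C57 KO arrays stayed below the lowest C57 WT array, at 4.86. No source used here places these probe sets in the genome.

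The same contrast can be read as the C57 minus 129 difference in KO against that in WT, and these 2 comparisons share no array. The strain difference passed for 949 probe sets in KO (3.43%) and for 697 in WT (2.52%). In each of the 9 called probe sets it was larger in WT than in KO. For Jakmip1 on 1433815_at it was 0.02 in KO and 1.92 in WT, for Abhd1 -0.08 in KO and -1.45 in WT, for Ppp1cb on 1431328_at -0.01 in KO and -0.82 in WT, for Drc1 0.06 in KO and -0.54 in WT, and for Supt7l on 1433374_at -0.03 in KO and -0.91 in WT. On the dimmer Jakmip1 probe set, 1430597_at, it was -0.20 in KO and 0.60 in WT, of opposite sign. For the unnamed 1440807_at, 1446324_at and 1442241_at it was 0.28, 0.30 and -0.05 in KO, and 2.76, 2.80 and 1.31 in WT. C57 KO and 129 KO arrays overlapped in all 9 probe sets, and C57 WT and 129 WT arrays did not overlap in 8 of the 9, Drc1 being the exception. The 9 were picked by a contrast made of these same strain differences. Overlap was not counted over all tested probe sets, so these counts are a description only.

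The called genes are spread over a stretch around Wfs1 and do not lie side by side. Counting tested genes in the RefSeq order of chromosome 5, Jakmip1 is 1 gene after Wfs1, and Ppp1cb, Supt7l, Abhd1 and Drc1 are 49, 55, 75 and 88 genes before it. None of the neighbours within 3 tested genes on either side of a called gene passed the test, though an unadjusted interaction p under 0.05 was found for 1 of 9 neighbouring probe sets of Abhd1, 2 of 10 of Drc1, 2 of 8 of Jakmip1, 3 of 11 of Ppp1cb and 2 of 11 of Supt7l, some shared between genes, against 3.25% of all tested. Around Abhd1 their interactions ran from -0.44 (Atraid) to 0.18, around Drc1 from -0.04 to 0.22, around Jakmip1 from -0.06 (Wfs1) to 0.27 (Evc2), around Ppp1cb from -0.34 to 0.27 and around Supt7l from -0.34 to 0.26. Prr14l, the third gene after Ppp1cb, again had probe sets of opposite sign, 0.23 and -0.25 (SE 0.09 each, neither called).

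The stretch from 150 tested genes before Wfs1 to 99 after it, whose limits were set after the values had been seen, held 465 named probe sets. Of these, 6 were called (1.29%, against 0.0326% of all tested) and 57 had an unadjusted interaction p under 0.05 (12.3%, against 3.25% of all tested). The remaining 1038 probe sets of chromosome 5 held no call and 32 with such a p (3.08%), and 21741 probe sets on other chromosomes held no call and 657 (3.02%). Of the 32, 10 lay in the block just past the stretch, 100 to 149 genes after Wfs1 (9.26% of 108 probe sets). The last block inside the stretch had 8.91%, so the higher share did not end at the chosen limit. When 12910 genes placed on chromosomes were divided into 262 windows of up to 50 neighbouring genes (11 windows held fewer, with 21 in the smallest), the median share with such a p was 2.685%, and 4 of the 5 windows with the highest share lay on chromosome 5. The highest was 17.0%, and the highest off chromosome 5 was 10.5%, on chromosome 8 between Irf8 and Rhou. These shares were not tested, and neighbouring probe sets are not independent.

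**Figure D2:**
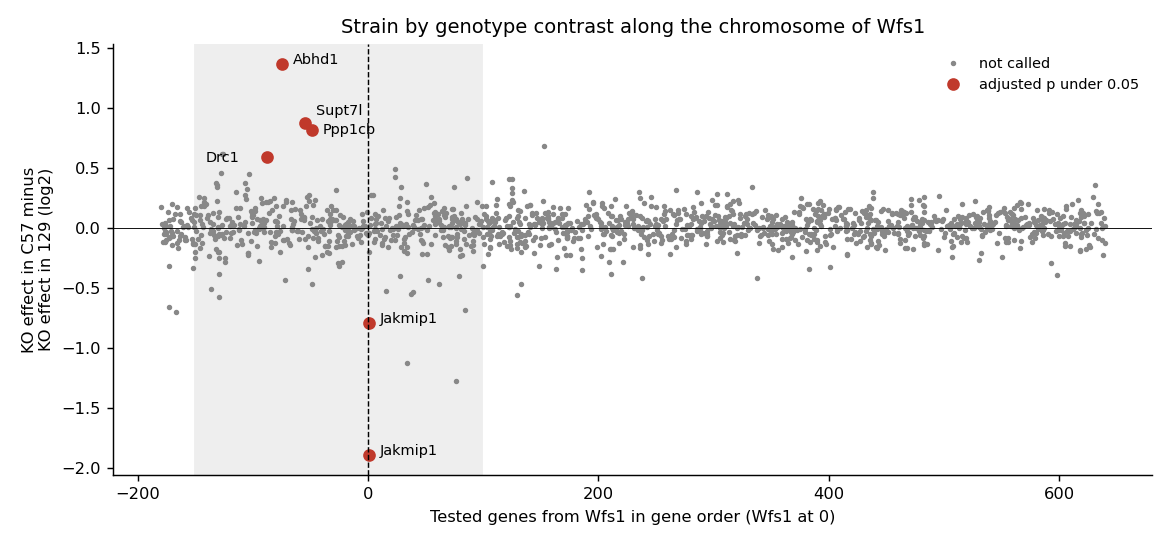
Interaction (log2, C57 KO minus WT less 129 KO minus WT) of each named probe set on chromosome 5 against the number of tested genes between it and Wfs1, negative before and positive after. Called probe sets are named, and all 6 lie between 88 genes before and 1 gene after Wfs1.

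Within that stretch the strain difference seen in WT was largely absent in KO. Of 34 probe sets called between strains in WT there, 2 were also called in KO (5.88%), and their median size was 0.48 in WT, against 0.06 in KO with the sign turned to that in WT. In the rest of chromosome 5, 17 of 44 were also called in KO (38.6%), with medians of 0.29 in KO and 0.45 in WT. On the other chromosomes it was 223 of 429 (52.0%), with medians of 0.41 in KO and 0.49 in WT. The share on single other chromosomes was uneven: among those with at least 20 such probe sets it was 20.5% on chromosome 1 and 22.0% on chromosome 8, but 83.3% on chromosome 9 and 81.8% on chromosome 6. On chromosome 8, 0 of 4 were also called in KO in the window between Irf8 and Rhou, and 1 of 8 in the window after it. These windows were picked after their values were seen. The probe sets were chosen by the WT difference, so a smaller size in KO is built into these medians in every region. The limits of the stretch were set with interaction values in view, and the interaction is the KO strain difference minus the WT one, so the contrast between the regions restates that choice and is a description only. Genes of the stretch that were not called in the interaction but differed between strains in WT include Atp8a1, a phospholipid flippase, at 0.26 in KO and 1.54 in WT, Gabrb1, the beta 1 subunit of GABA-A receptors, at 0.06 in KO and 0.75 in WT, and Lgi2, a secreted LGI-family protein, at 0.12 in KO and 0.66 in WT. The part of neighbouring chromosome carried with the targeted allele in these values was not tested.

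**Figure D3:**
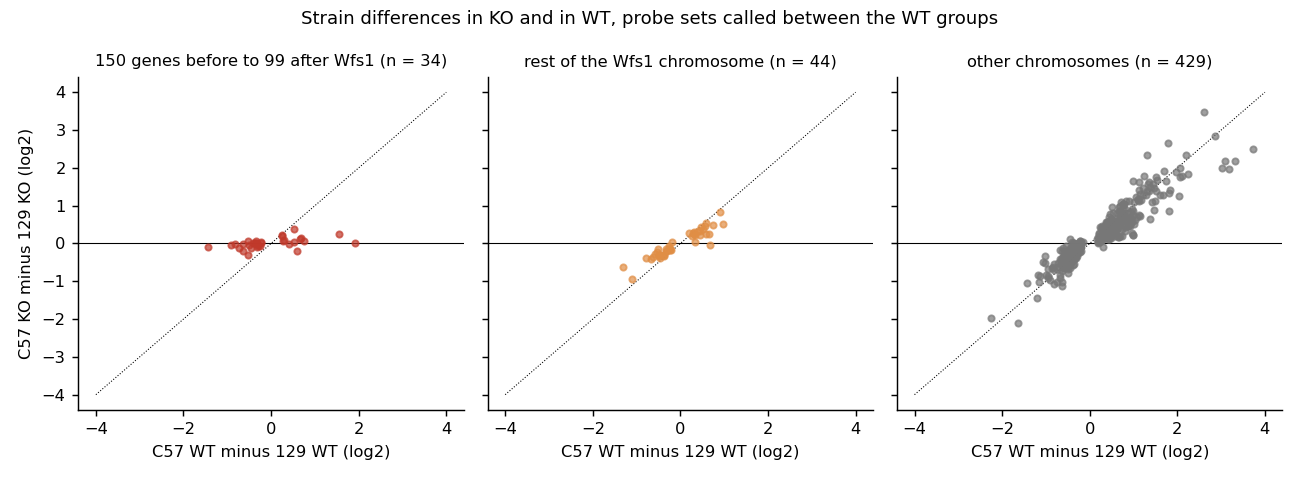
C57 minus 129 difference (log2) in KO and in WT for probe sets called between strains in WT, shown separately for the stretch near Wfs1, the rest of chromosome 5 and the other chromosomes. Near Wfs1 most points lie close to 0 in KO, with a median of 0.06 turned to the sign in WT, while on the other chromosomes the median is 0.41.

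Array by array, the C57 KO arrays were described along chromosome 5 by their level between the strains, and differences among them were not tested. For probe sets called between strains in WT, each array was placed on a scale where 0 is the 129 WT mean and 1 is the C57 WT mean, and the median over the probe sets of a block of genes was taken. The WT arrays both chose these probe sets and set the scale, so their levels near 0 and 1 are built in. A C57 KO level below 1 is partly built in as well, in every block, so the ranges are a description only. Blocks held 4 to 15 probe sets, and were laid out after the values had been seen. In the 49 tested genes after Wfs1, all 9 C57 KO arrays lay between -0.29 and 0.25, and the C57 WT arrays between 0.75 and 1.21. In the next block, 50 to 99 genes after, they ran from -0.43 in array 1 to 1.23 in array 8. From 100 to 149 genes after, array 1 was at -0.16, and arrays 5, 8 and 10 were at 1.10, 0.80 and 0.79. From 300 to 399 genes after, the C57 KO arrays lay between 0.49 and 1.31 (median 0.92), and the C57 WT arrays between 0.66 and 1.38 (median 0.78). From 400 genes after to the end, they lay between 0.34 and 1.19 (median 0.61) in C57 KO and between 0.51 and 1.34 (median 0.93) in C57 WT. On the other chromosomes, over 429 probe sets, the C57 KO arrays lay between 0.66 and 1.04, with arrays 2 and 8 lowest at 0.66 and 0.73, and the C57 WT arrays between 0.79 and 1.10. Before Wfs1, where 180 tested genes were measured, the C57 KO arrays stayed between -0.25 and 0.67 in every block. The C57 WT arrays lay between 0.46 and 1.28 there, and the groups overlapped in the blocks farthest from and nearest to Wfs1. The 129 KO arrays lay between 0.00 and 0.16 on the other chromosomes, and within chromosome 5 their highest block value was 1.22, in array 59 between 200 and 249 genes after Wfs1. With few probe sets per block, single values are imprecise.

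**Figure D4:**
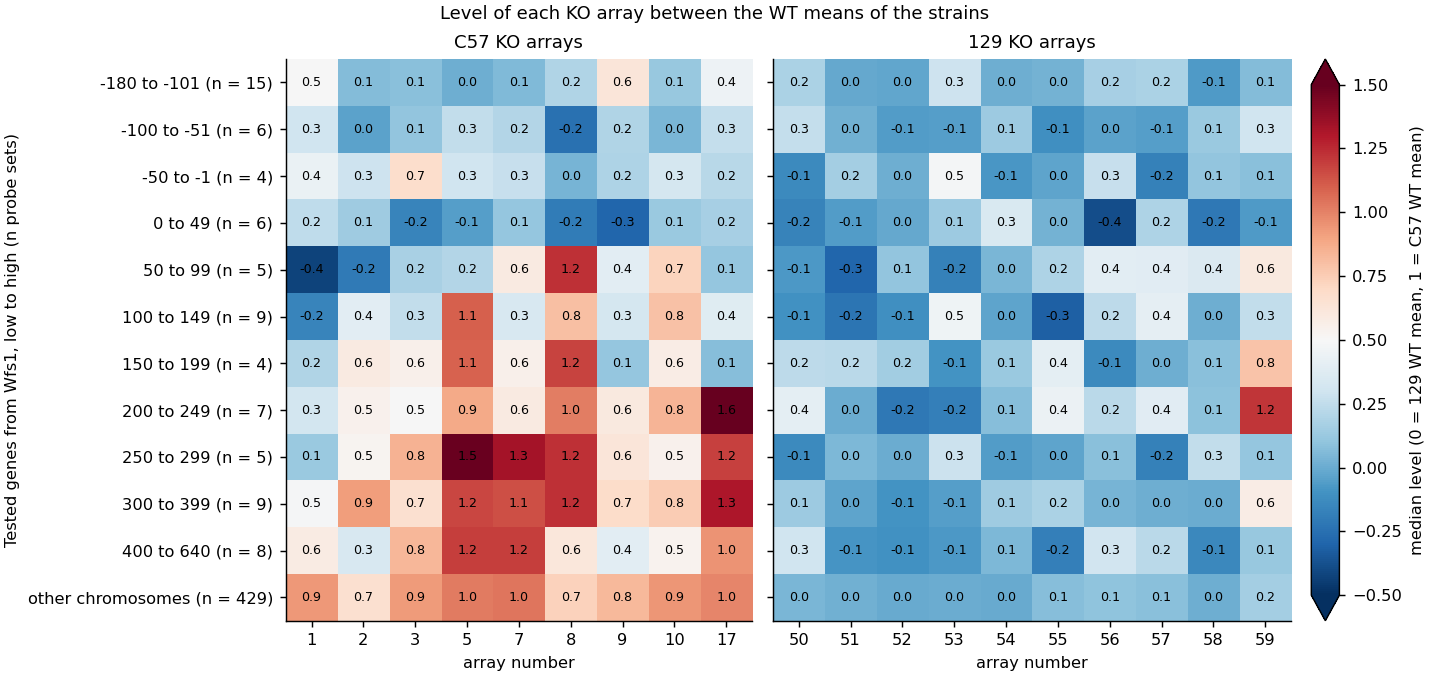
Median level of each array, by block of tested genes along chromosome 5 counted from Wfs1 and for the other chromosomes, on a colour scale where 0 is the 129 WT mean and 1 the C57 WT mean of probe sets called between strains in WT. C57 KO arrays are between -0.29 and 0.25 in the block that starts at Wfs1 and between 0.66 and 1.04 on the other chromosomes. The WT arrays chose the probe sets and set the scale, so a C57 KO level below 1 is partly built in.

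Genes just outside the threshold included some on other chromosomes, and none of the following passed. Ccr6, the receptor of the chemokine CCL20, on chromosome 17, had means of 4.28 ± 0.50 in C57 KO and 5.03 ± 0.34 in C57 WT (SD, n = 9 each), and of 5.53 ± 0.20 in 129 KO (SD, n = 10) and 5.32 ± 0.11 in 129 WT (SD, n = 9), an interaction of -0.96 (SE 0.20, limma adjusted p = 0.0907). It differed in form from the called genes: the strain difference was -1.25 in KO and -0.30 in WT, and no C57 KO array overlapped a 129 KO array. With each of the 37 arrays left out in turn, Ccr6 passed in 3 of the 37 fits. These left out C57 KO array 5 (limma adjusted p = 0.00281), C57 KO array 17 (0.0366) or C57 WT array 40 (0.0217). The highest limma adjusted p among the 37 fits was 0.209. Abcb10, a transporter of the inner mitochondrial membrane, on chromosome 8, had means of 3.84 in C57 KO, 4.61 in C57 WT, and 3.61 in both 129 groups, an interaction of -0.76 (SE 0.18, limma adjusted p = 0.206). C57 KO array 8, at 4.83, and array 9, at 4.36, were above the other C57 KO arrays. Abcb10 passed in 1 of the 37 fits, without array 8 (limma adjusted p = 0.00129), and the highest limma adjusted p was 0.434. Arv1, an ER membrane protein of sterol transport that lies on chromosome 8 as well, had an interaction of -0.39 (SE 0.09, limma adjusted p = 0.171). It passed in 2 of the 37 fits, without C57 KO array 5 (limma adjusted p = 0.039) or array 8 (0.0226), and the highest was 0.317.

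On chromosome 5, Clock, the circadian transcription factor, had means of 7.59 in C57 KO, 7.19 in C57 WT, 7.72 in 129 KO and 7.70 in 129 WT, an interaction of 0.38 (SE 0.09, limma adjusted p = 0.173). C57 KO array 8, at 7.20, was at the C57 WT level while the others of its group were at 7.47 or more. Of 37 fits with 1 array left out, Clock passed in 1, without array 8 (limma adjusted p = 0.00688). The highest limma adjusted p among these fits was 0.37. Clock is 108 tested genes after Wfs1. Over the other processing settings given below, which include 1 value per gene, its interaction ran from 0.0006 to 0.50. Tomm7, a subunit of the translocase of the outer mitochondrial membrane, had an interaction of 0.62 (SE 0.15, limma adjusted p = 0.224). It passed in 2 of 37 fits with 1 array left out, without C57 WT array 29 (limma adjusted p = 0.0287) or 129 KO array 59 (0.0305). The highest limma adjusted p among these fits was 0.47. Over the other processing settings the interaction of Tomm7 ran from -0.05 to 0.79. Sod3, the extracellular superoxide dismutase, had -0.55 (SE 0.13, limma adjusted p = 0.249), from means of 3.41 in C57 KO, 3.88 in C57 WT, 3.27 in 129 KO and 3.19 in 129 WT, the 129 ones and the C57 KO one below the signal filter. Pus7, a pseudouridine synthase, had 0.45 (SE 0.13) and Gabrb1 -0.68 (SE 0.20), and neither was called. Over the other processing settings the interaction of Gabrb1 ran from -0.89 to 0.04.

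Further named genes on other chromosomes did not pass either. Interactions were 0.29 for Tmie, a hair cell membrane protein, 0.39 for Asph, an aspartyl hydroxylase of the ER, and 0.42 for Kirrel, a cell adhesion protein. They were -0.31 both for Fancg, of the Fanconi anaemia DNA repair complex, and for Tinf2, which protects telomeres. The limma adjusted p of Tmie was 0.607, of Asph 0.64, of Kirrel 0.897 and of Fancg 0.975. In each of these 5 the KO minus WT differences were of opposite sign in the strains, for example 0.20 in C57 and -0.09 in 129 for Tmie, and -0.12 in C57 and 0.19 in 129 for Fancg. Over the other processing settings the interaction ran from -0.003 to 0.40 for Asph and from -0.37 to 0.08 for Fancg.

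Differences of opposite sign were looked at more widely. Of 47 probe sets with an unadjusted KO minus WT p under 0.05 in both strains (5.63% of all tested had one in C57 and 2.25% in 129), 29 had the same sign, Wfs1 among them, and 18 opposite signs. Besides Supt7l, the opposite pairs with the smallest interaction p were Zmynd19, Fastkd1, Plekha5 and Ehbp1l1. Zmynd19, a zinc finger protein, differed by 0.22 in C57 and -0.18 in 129 (interaction 0.40, SE 0.10). Fastkd1, of a family of mitochondrial RNA-binding proteins, differed by -0.38 in C57 and 0.24 in 129 (interaction -0.62, SE 0.15), and Plekha5 by -0.19 and 0.15 (interaction -0.34, SE 0.09). Ehbp1l1 differed by 0.30 in C57 and -0.24 in 129 (interaction 0.54, SE 0.15). None of these 4 was called, with limma adjusted p between 0.314 and 0.724. Over the other processing settings the interaction ran from -0.11 to 0.61 for Zmynd19 and from -0.66 to -0.07 for Fastkd1. It ran from -0.45 to 0.003 for Plekha5 and from 0.25 to 0.78 for Ehbp1l1.

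Gene lists tied to the known roles of wolframin did not stand out. Each gene was read on its brightest probe set, and over all 13078 genes 3.12% had an unadjusted interaction p under 0.05 and the median interaction was 0.02. Of 31 ER stress and unfolded protein response genes, 0 had such a p, and their interactions had a median of 0.04 and ran from -0.19 (Herpud1) to 0.25 (Dnajc3). Hspa5, the main ER chaperone, had 0.13 (SE 0.13), and Ddit3, the stress-induced transcription factor CHOP, -0.21 (SE 0.23) at a signal near the filter. Of 21 calcium store and buffer genes, 0 had such a p (median -0.01). Cisd2, the gene of the second form of Wolfram syndrome, had 0.11 (SE 0.11). Of 30 genes of the mitochondrial respiratory chain 1 had such a p, Cox18, an insertase for cytochrome oxidase on chromosome 5, at 0.31 (SE 0.11).

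Among motile cilium genes, 2 of 19 tested had an unadjusted p under 0.05, in opposite directions. They were Drc1 at 0.59 and Cfap69, a flagellar protein on chromosome 5, at -0.70 (SE 0.18, limma adjusted p = 0.508), and the median of the list was 0.01. Cfap69 passed in 1 of 37 fits with 1 array left out, without C57 WT array 34 (limma adjusted p = 0.0302). The highest limma adjusted p among these fits was 0.906. No other tested member had such a p. Among 18 members of the Abhd family 2 had such a p, Abhd1 included, and the median was 0.01. The shares were 10.5% and 11.1%, against 3.12% of all genes. Drc1 and Abhd1 were already called when these lists were made around them, so 1 such p in each list was fixed beforehand.

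Markers of regions and cell types were mostly near 0 as well. Striatum markers had the lowest median of the 19 lists, -0.24 over 16 genes, with 1 of 16 above 0, and none with an unadjusted p under 0.05 on its brightest probe set. Their KO minus WT medians were -0.37 in C57 and -0.15 in 129. Pde10a, the striatal phosphodiesterase, had -0.60 (SE 0.23) on another probe set, from means of 8.17 in C57 KO, 8.80 in C57 WT, 8.52 in 129 KO and 8.55 in 129 WT. The striatum level of each array, given above, is the mean of these markers. With that level as a covariate 8 of the 9 probe sets kept their calls, and Supt7l did not (0.83 against 0.88 without the covariate, limma adjusted p = 0.0602). Medians were 0.03 for hippocampus, 0.00 for cortical layers, 0.00 for GABA signalling, 0.06 for glutamate receptors, -0.05 for myelin, 0.04 for astrocytes, -0.01 for microglia and 0.06 for vessels, with 2 genes in all with such a p, both astrocyte markers (S100b at 0.22). Activity-induced early genes had a median of 0.08, with 1 of 22. Interferon-stimulated genes had 0.02 with 0 of 17, choroid plexus markers -0.16 with 0 of 4, pituitary hormone genes -0.12 with 0 of 2 and sex-linked genes -0.22 with 1 of 4. In whole tissue, fewer cells of a type and less RNA per cell cannot be told apart.

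**Figure D5:**
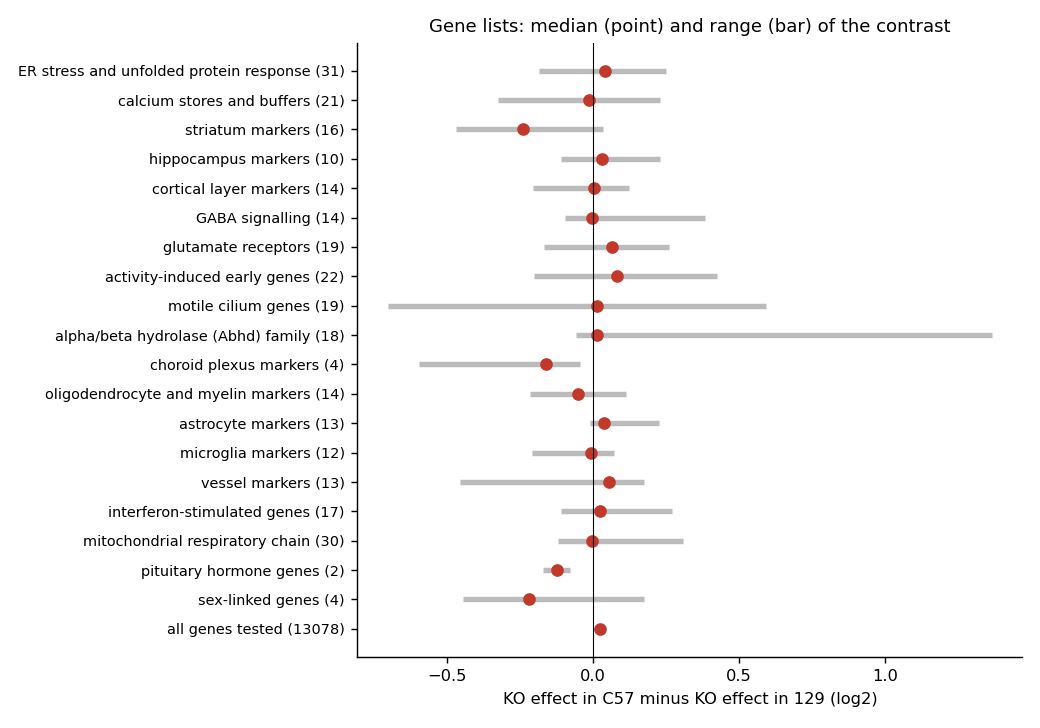
Interaction (log2) of each gene list, with genes read on their brightest probe set. The point is the list median and the bar runs from the lowest to the highest tested member. All genes tested have a median only. Medians lie between -0.24 (striatum markers) and 0.08 (activity-induced early genes). Abhd1 at 1.37 is the upper end of its list, and the motile cilium list has Drc1 at 0.59 and Cfap69 at -0.70 at its ends.

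The size of the groups set how small a difference could be seen. The median SE of the interaction was 0.12, and the 95% interval of 85.8% of the tested probe sets lay within 0.5 of 0, and of 98.4% within 1 of 0. The intervals thus bounded interactions above 0.5 in size in most probe sets. With p-values adjusted over all tested probe sets, interactions near 0.5 could still go uncalled. For example, 2700038G22Rik at 0.61 (SE 0.14, limma adjusted p = 0.171) was not called, and Drc1 at 0.59 (SE 0.10) was. An interaction above 1 in size was estimated for 20 probe sets, of which 5 were called.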

How the data were processed

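The deposited table held log2 probe set signals that the authors had summarised and normalized, as judged from the values. The submitters' processing notes name MAS5 and GCRMA, with neither version nor role, and the values have the form that GCRMA writes. Of 45101 probe sets, 64 controls were left out. Of the 45037 others, 34945 had 1 gene symbol, 932 several and 9160 none. Dim probe sets were left out: at least 1 group mean had to reach a log2 signal of 3.6, the 40th percentile over probe sets. This kept 27647, of which 23321 had 1 symbol, for 13078 genes. No further scaling and no pseudocount was applied. Differences below that signal mix transcript with background. Group came from the sample titles, and the number of arrays limits the precision.

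All 37 arrays entered 1 limma fit with a coefficient for each of the 4 groups (limma 3.58.1, R 4.3.3), and p-values were adjusted by Benjamini-Hochberg over the 27647 probe sets, 2-sided, with calls at 0.05. Tables and plots used Python 3.11.15, NumPy 2.4.6, pandas 2.3.3 and matplotlib 3.10.9. Tested on simulated data with 27647 probe sets, the interaction was recovered for 66.5% of 200 probe sets shifted by 0.5 and for 93.0% of 200 shifted by 1. Of 27247 left unshifted, 13 were called (0.0477%). With so many shifted probe sets, the unadjusted p needed for a call is less strict than with the 9 real calls. The shares may thus overstate recovery here. Gene order came from the mouse RefSeq table (GRCm38.p6), with 23244 of the tested named probe sets placed on a chromosome.

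The genes named were the called ones, the 12 largest moderated t in each direction, 5 with opposite signs in the strains, 3 in each direction on the chromosome of Wfs1, the member of each list with the smallest p, and Wfs1, Abhd1, Drc1, Cisd2, Hspa5 and Ddit3. Members, gene lists and tests were chosen with earlier results of these data known. Atp8a1, Atraid, Evc2, Prr14l and the genes named as extremes of a list were chosen after their values were seen, as were the stretch, the blocks and the level scale.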

Additional observations from a re-analysis of the deposited data

Results flagged for a closer look

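The 9 called probe sets are flagged because the KO minus WT differences in C57 and in 129 differed by the test of the difference itself (limma, adjusted p under 0.05). The differences, C57 less 129, were -1.90 and -0.80 for Jakmip1, 1.37 for Abhd1, 0.81 for Ppp1cb, 0.59 for Drc1 and 0.88 for Supt7l. They were -2.48 for 1440807_at, -2.50 for 1446324_at and -1.36 for 1442241_at, which have no gene symbol.

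A single array far from the others of its group was looked for in 192 groups of arrays, and 16 were found. Chance flags about 1 in 20 groups. In C57 KO, array 10 had Zmynd19 at 5.30. In C57 WT, array 34 was high for Abhd1 at 5.37 and for Kl, a choroid plexus marker, at 5.25, and array 42 had Wfs1 at 9.73. In 129 KO, array 59 was high for Abhd1 at 6.49, for Ccr6 at 6.03 and for Tomm7 at 5.63, array 57 had Clock at 7.46 and Pomc at 6.90, array 52 had Fancg at 4.63, and array 53 had 1440807_at at 2.27. In 129 WT, array 73, which also had the largest actin 3' to 5' difference, was low for Cfap69 at 3.78 and for Gabrb1 at 6.75, array 72 was high for Canx at 6.20 and for Kl at 4.64, and array 70 had Plekha5 at 4.77. The part of RNA quality in the values of array 73 was not tested.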

How the results depend on the processing

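The 9 calls for the interaction became 2 with the brightest probe set per gene and 3 with probe sets averaged per gene, where fewer features were tested and unnamed probe sets drop out. They became 1 in array set 2 alone (the 18 higher-numbered arrays) and 14 with the first residual principal component as a covariate, and the cause of these was not tested. On the brightest probe set Ppp1cb reversed to -0.47 and Supt7l to -0.10. Under no filter there were 11 calls, at the 60th percentile 6, with array weights 10, with the array set as a block 10 and in array set 1 alone (19 arrays) 7. Of the 7 in array set 1, 6 were from the 9. All 9 were among the calls under no filter, with array weights, with the block and with the principal component. Quantile normalization, median centring and eBayes with trend and robust each gave 9. With 1 array left out in turn there were 9 to 13 calls, and each of the 9 probe sets remained in each of the 37 fits. Of the alternatives chosen after seeing the data, a covariate for actin RNA quality gave 9 calls, the striatum marker level 8 and a variance for each strain 9. Of the probe sets with an unadjusted p under 0.05, 72.7% were positive, against 47.4% in array set 1 alone, 58.5% in set 2 alone and 56.2% with the principal component. No paired analysis was possible because the groups share no sample numbers. Signals under the filter limit what can be said of Supt7l, 1430597_at of Jakmip1, 1440807_at, 1442241_at and Sod3.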

Other observations

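Some probe sets with a large interaction that did not pass had C57 KO arrays far apart from each other, and all were chosen after their values were seen. Rpgrip1, a photoreceptor cilium protein on chromosome 14, had means of 7.73 ± 1.85 in C57 KO and 8.93 ± 0.49 in C57 WT (SD, n = 9 each), and of 5.76 ± 0.36 in 129 KO (SD, n = 10) and 5.75 ± 0.47 in 129 WT (SD, n = 9), an interaction of -1.22 (SE 0.61). Probe set 1444198_at, with no gene symbol, had means of 5.24 ± 1.97 in C57 KO and 6.65 ± 0.35 in C57 WT (SD, n = 9 each), and of 2.57 ± 0.15 in 129 KO (SD, n = 10) and 2.46 ± 0.19 in 129 WT (SD, n = 9), an interaction of -1.52 (SE 0.62). Atp8a1, on chromosome 5 and 76 tested genes after Wfs1, had means of 8.40 ± 0.88 in C57 KO and 9.52 ± 0.30 in C57 WT (SD, n = 9 each), and an interaction of -1.28 (SE 0.39). In these 3 the C57 KO arrays had the largest SD of the 4 groups.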
